A study of Mus musculus with 4 samples.

Results

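A set of 10 basement membrane genes was followed across 4 expression arrays of mouse embryonic stem cells. The set was fixed by gene symbol: the laminin chains Lama1, Lama5, Lamb1 and Lamc1, the type IV collagen chains Col4a1 and Col4a2, the nidogens Nid1 and Nid2, the perlecan core protein Hspg2, and Sparc. It was chosen with earlier results of these data known, so counts of members beside all genes are descriptive only. The platform annotation named 16 probe sets for 8 of these 10 genes, out of 28898 probe sets with 1 gene and 17097 genes in all. Lama5 and Nid2 were not analysed here.

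The cells were of the J1 line, a pluripotent line grown here without feeder cells in serum with LIF. Per the labels' protocols, all RNA came from iP14 cells, without or with doxycycline, although the source label calls the scramble cells wild type. The cells carried either a control or an shRNA knockdown of Tet1 and Tet2, the genes of enzymes that oxidise methylated cytosine. The 4 conditions were Tet1/Tet2 KD + PRDM14 (knockdown with PRDM14), Tet1/Tet2 KD (knockdown), Scramble + PRDM14 (scramble with PRDM14) and Scramble (scramble), with overexpression of PRDM14, a PR-domain transcriptional regulator found in pluripotent cells and in germ cells, on doxycycline. Each condition had 1 array, so no difference could be set against a spread between cultures, and an effect of doxycycline itself and one of PRDM14 cannot be told apart. The question of the series was how far transcriptional control by PRDM14 involves TET1 and TET2.

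A basement membrane is a thin sheet of extracellular matrix on which epithelial cells rest. Laminins, cross-shaped trimers of an alpha, a beta and a gamma chain, polymerise at the cell surface on integrins and dystroglycan. Type IV collagen forms a second network, and nidogens and the heparan sulfate proteoglycan perlecan link the networks. In the early mouse embryo the epiblast and the primitive endoderm lie on either side of such a sheet, and parietal endoderm, a derivative of the primitive endoderm, secretes its components and the collagen-binding glycoprotein SPARC in large amounts.

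Col4a1 and Col4a2 lie head to head in the genome, and their start regions are shown because the levels of these genes were the most alike of the set. Nid1 is shown as the member with the widest range over the arrays. The windows run from 250 bases before to 50 after the annotated start, from RefSeq on build GRCm38.p6, which was not named for the array files. Capitals mark each GC box, searched as GGGCGG on either strand, and each CCAAT box, searched by the letters of its name on either strand. A box on the opposite strand appears as its reverse complement. Col4a1 is at chr8:11312777-11313076 on the minus strand, Col4a2 at chr8:11312555-11312854 on the plus strand, and Nid1 at chr13:13437352-13437651 on the plus strand.
Col4a1: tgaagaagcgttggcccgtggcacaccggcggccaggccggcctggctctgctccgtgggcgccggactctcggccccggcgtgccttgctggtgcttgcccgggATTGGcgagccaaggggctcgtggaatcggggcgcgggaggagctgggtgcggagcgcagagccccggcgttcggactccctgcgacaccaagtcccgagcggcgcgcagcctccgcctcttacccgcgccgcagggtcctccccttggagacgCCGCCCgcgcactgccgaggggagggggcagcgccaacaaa
Col4a2: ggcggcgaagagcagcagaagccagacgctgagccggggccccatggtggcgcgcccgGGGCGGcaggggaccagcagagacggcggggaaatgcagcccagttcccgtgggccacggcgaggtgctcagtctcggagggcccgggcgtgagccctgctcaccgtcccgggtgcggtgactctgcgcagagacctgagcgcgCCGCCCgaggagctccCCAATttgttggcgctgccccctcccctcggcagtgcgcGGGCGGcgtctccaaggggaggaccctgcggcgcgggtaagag
Nid1: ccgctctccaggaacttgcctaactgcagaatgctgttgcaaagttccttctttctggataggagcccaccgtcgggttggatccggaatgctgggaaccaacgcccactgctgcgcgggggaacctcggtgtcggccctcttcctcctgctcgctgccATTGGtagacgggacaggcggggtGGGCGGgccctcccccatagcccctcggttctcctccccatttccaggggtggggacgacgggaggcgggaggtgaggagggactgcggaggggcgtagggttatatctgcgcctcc

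The annotated starts of Col4a1 and Col4a2 are 21 bases apart and the windows share 78 bases, which hold 1 GC box that both windows print on opposite strands. The Col4a1 window held 1 GC box and 1 CCAAT box, the Col4a2 window 3 and 1, and the Nid1 window 1 and 1. Of 32851 RefSeq windows of the same length, 35.7% held a GC box and 37.4% a CCAAT box. The Col4a1, Col4a2 and Nid1 windows had 37, 33 and 20 CpG dinucleotides, the sites of DNA methylation, against a median of 7 over all windows. A match is a description of the letters and not a bound site, and methylation was not measured in the data used here.

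Signals are log2 values per probe set, so a difference of 1 is 2-fold. They serve to compare arrays within a probe set and not to rank genes. An expression filter was set at 5.40, the median of all named probe set values, and a gene was represented by its brightest probe set. A gene was called higher or lower where the difference was 2-fold or more and at least 1 array of the pair reached the filter. This rule goes by size alone and tests nothing. Of the 16 member probe sets, 10 reached the filter on all 4 arrays, 4 on some of them, and 2, both of Lamb1, on none.

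The knockdown label could be checked on Tet2 only. Its brightest probe set read 8.15 in knockdown with PRDM14, 7.50 in knockdown, 9.33 in scramble with PRDM14 and 8.46 in scramble cells. Prdm14 read between 4.35 and 4.83, below the filter on all 4 arrays, so it gave no check of the PRDM14 labels. The scramble array stood furthest from the rest. Genes that lay 2-fold or more away from all other arrays numbered 12 for knockdown with PRDM14, 7 for knockdown, 27 for scramble with PRDM14 and 49 for scramble cells. The comparisons that subtract the scramble array cannot be made without it. The comparisons within PRDM14 arrays and within knockdown arrays do not use it.

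Lama1 reached the filter on 1 array alone, the one on which it was highest, so counts over members are given for the 7 whose mean over the 4 arrays reached the filter, a rule chosen after the data were seen. The scramble array with PRDM14 gave the highest value for 4 of these 7 (Lamc1, Col4a1, Col4a2 and Nid1), while it was the highest array for 26.0% of the 10122 genes that met the same rule. The scramble array gave the lowest value for 4 of 7 (Lamb1, Col4a1, Col4a2 and Sparc), against 31.3% of those genes. With bulk RNA, fewer cells that make these proteins and less RNA per cell cannot be told apart.

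**Figure D1:**
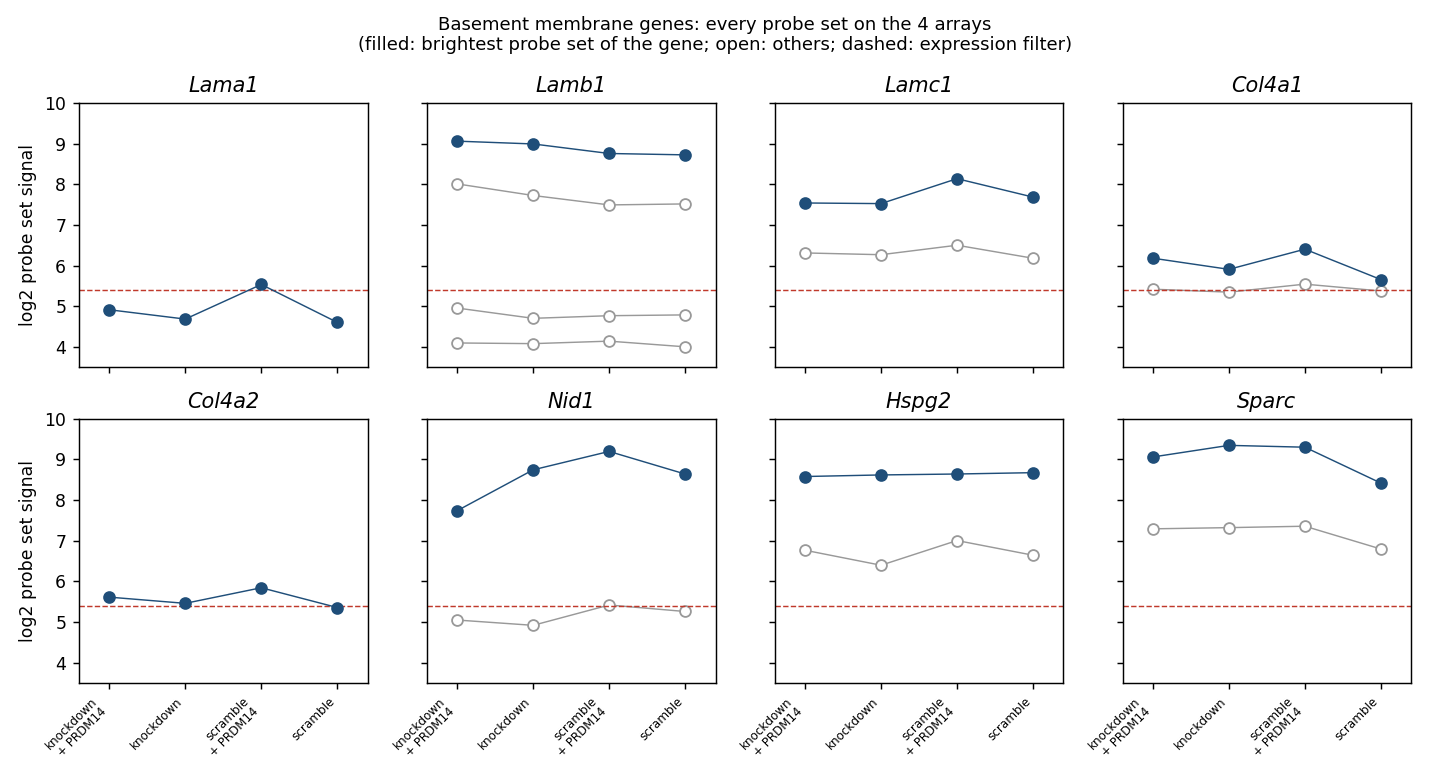
Log2 probe set signal (vertical axis) of the 8 measured basement membrane genes on the 4 arrays (horizontal axis), with filled points for the brightest probe set of a gene, open points for its other probe sets and a dashed line at the filter of 5.40. Nid1 dips to 7.74 on the knockdown array with PRDM14, Sparc is lowest on the scramble array at 8.42, Hspg2 stays between 8.58 and 8.67 on its brightest probe set, and Lama1 passes the filter on the scramble array with PRDM14 alone.

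The laminin chains did not move as a unit. Lama1, the alpha chain of the laminin of early embryonic basement membranes, read 4.92 in knockdown with PRDM14, 4.69 in knockdown, 5.54 in scramble with PRDM14 and 4.60 in scramble cells. Its only probe set thus reached the filter on 1 array, and the log2 difference of 0.93 between the scramble arrays was 0.14 once values below the filter were raised to it. Lamb1, the beta chain, read 9.06 in knockdown with PRDM14, 9.00 in knockdown, 8.76 in scramble with PRDM14 and 8.73 in scramble cells. Both knockdown arrays read above both scramble arrays for Lamb1, by 0.30 with PRDM14 and 0.27 without it. A second Lamb1 probe set above the filter had the same order of backgrounds, at 8.01 in knockdown with PRDM14, 7.73 in knockdown, 7.50 in scramble with PRDM14 and 7.52 in scramble cells.

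Lamc1, a gamma chain that pairs with Lamb1 in several laminins, had the opposite order with PRDM14. It read 7.54 in knockdown with PRDM14, 7.53 in knockdown, 8.14 in scramble with PRDM14 and 7.69 in scramble cells, so the scramble array with PRDM14 stood above the other 3. Its second probe set gave 6.31 in knockdown with PRDM14, 6.27 in knockdown, 6.50 in scramble with PRDM14 and 6.18 in scramble cells, with the same array highest. The knockdown difference with PRDM14 was −0.60 on the brightest probe set of Lamc1 and −0.19 on the second. The brightest Lamb1 probe set carries the suffix of sets that can match several transcripts.

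The type IV collagen chains followed each other. Col4a1 read 6.18 in knockdown with PRDM14, 5.91 in knockdown, 6.41 in scramble with PRDM14 and 5.66 in scramble cells. Col4a2, its partner in the common collagen trimer, read 5.61 in knockdown with PRDM14, 5.46 in knockdown, 5.84 in scramble with PRDM14 and 5.35 in scramble cells. The 4 arrays stood in the same order for both genes, and PRDM14 arrays were above their counterparts in both backgrounds. Centred on their own means, the profiles of Col4a1 and Col4a2 lay a root mean square distance of 0.11 log2 units apart, the smallest of the 28 pairs of members. The PRDM14 difference of Col4a1 was 0.27 in knockdown cells and 0.75 in scramble cells, and that of Col4a2 was 0.15 in knockdown cells and 0.49 in scramble cells. The second Col4a1 probe set, which read between 5.35 and 5.55, gave 0.07 in knockdown cells and 0.17 in scramble cells. Col4a2 had 1 probe set, which was below the filter on the scramble array.

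Nid1, which encodes nidogen-1, the linker between laminin and type IV collagen, had the widest range of the members and was the only one called. Its brightest probe set read 7.74 in knockdown with PRDM14, 8.74 in knockdown, 9.20 in scramble with PRDM14 and 8.64 in scramble cells. The knockdown array with PRDM14 stood below the other 3, by 1.46 or 2.75-fold against the scramble array with PRDM14 and by 1.01 or 2.01-fold against the knockdown array, which is just past the 2-fold limit. The second Nid1 probe set read 5.05 in knockdown with PRDM14, 4.92 in knockdown, 5.42 in scramble with PRDM14 and 5.26 in scramble cells, and was below the filter on all but 1 array. It gave −0.37 between the arrays with PRDM14 and 0.13, the opposite direction, between the knockdown arrays. With the mean of both probe sets Nid1 was not called in either comparison, at −0.91 and −0.44.

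Hspg2, the perlecan core protein, differed little on its brightest probe set, which read 8.58 in knockdown with PRDM14, 8.62 in knockdown, 8.64 in scramble with PRDM14 and 8.67 in scramble cells. The range of 0.09 was the narrowest of the brightest probe sets in the set. The second Hspg2 probe set, of the kind that can match several transcripts, read 6.76 in knockdown with PRDM14, 6.40 in knockdown, 7.00 in scramble with PRDM14 and 6.64 in scramble cells. With PRDM14 it was 0.37 higher in knockdown cells and 0.36 higher in scramble cells, so the Hspg2 probe sets did not show the same pattern.

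Sparc, a matricellular glycoprotein that binds type IV collagen, was low on the scramble array. Its brightest probe set read 9.06 in knockdown with PRDM14, 9.35 in knockdown, 9.30 in scramble with PRDM14 and 8.42 in scramble cells. The second probe set read 7.29 in knockdown with PRDM14, 7.32 in knockdown, 7.36 in scramble with PRDM14 and 6.79 in scramble cells. On both probe sets the scramble array lay below the other 3, which differed among themselves by at most 0.29 and 0.06. Against scramble, the brightest probe set differed by 0.93 with the knockdown and by 0.88 with PRDM14, both just under 2-fold and both counted from the same array.

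In scramble cells with PRDM14 against scramble cells, 6 of the 7 members other than Lama1 had a difference above 0, with a median of 0.49 against 0.003 over the 10122 genes. No member was called higher, where 1.09% of the 10366 genes with an array of the pair at the filter were, and none lower, where 1.00% were. Sparc (0.88) and Col4a1 (0.75) were at least 1.5-fold higher, a size that 4.28% of those genes reached. With the mean of its probe sets Col4a1 was below that size, at 0.46, and Sparc was not, at 0.72. Lama1, at 0.93, entered only through the array on which it was high. Of 12 member probe sets whose mean reached the filter 10 were above 0, against 51.0% of 14455 probe sets. Between probe sets of 1 gene this difference had a pooled SD of 0.22 over 3233 genes, a technical yardstick that covers neither cultures nor arrays.

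In knockdown cells with PRDM14 against knockdown cells, the members did not share a direction. Lama1 was below the filter on both arrays, and of the other 7 members 4 were above and 3 below 0, with a median of 0.02 against −0.001 over the 10122 genes. Nid1 was the member called lower (−1.01), where 0.272% of 10311 genes were, and none was called higher, where 0.359% were. Col4a1 (0.27) and Sparc (−0.29) came next in size. The pooled SD between probe sets was 0.15.

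**Figure D2:**
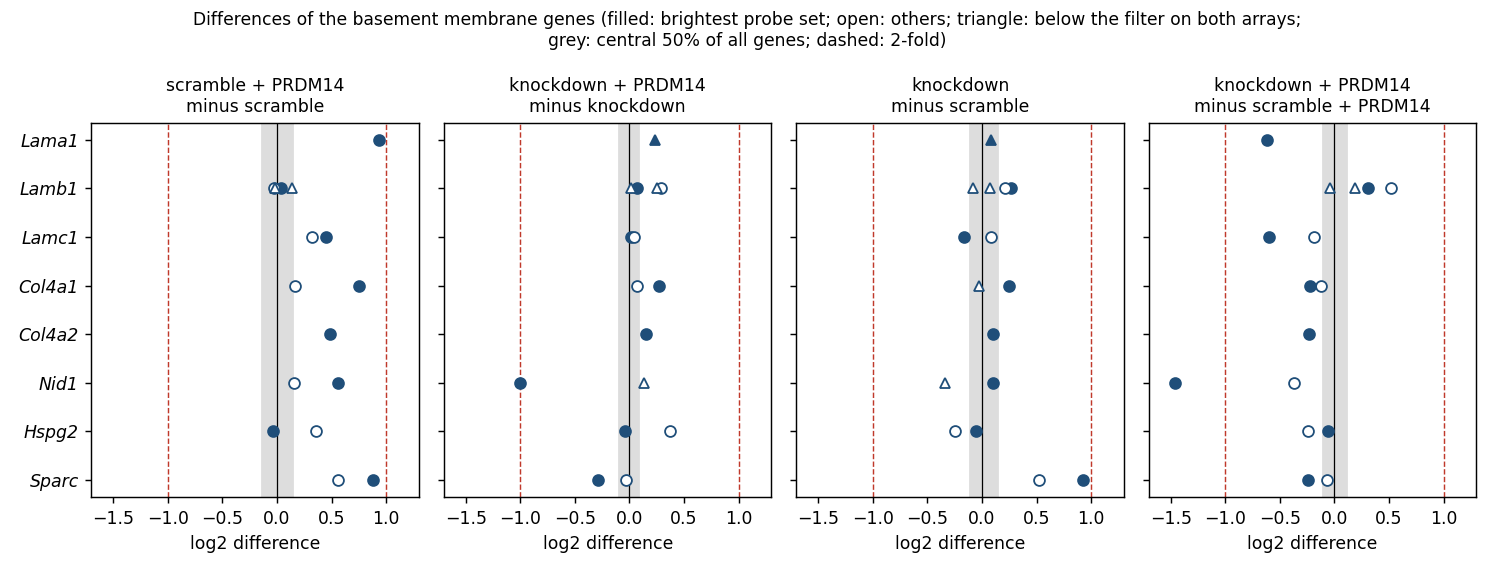
Log2 differences (horizontal axis) of the 8 measured members in the 4 comparisons, 1 panel each, with filled marks for the brightest probe set, open marks for the others, triangles where both arrays were below the filter, a grey band for the central 50% of all genes and dashed lines at 2-fold. Most marks lie right of the band with PRDM14 in scramble cells and left of 0 in the last panel, and only the filled mark of Nid1 is past a 2-fold line, at −1.01 and −1.46.

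In knockdown cells against scramble cells without PRDM14, the 7 members other than Lama1 reached the filter and 5 of them were above 0, with a median of 0.10 against 0.01 over the 10122 genes. Sparc (0.93) was the only member past 1.5-fold, a size at which 2.93% of 10351 genes were higher, and none was called higher, where 0.618% of all genes were, or lower, where 0.444% were. The other members lay between −0.16 (Lamc1) and 0.27 (Lamb1). Of 12 member probe sets whose mean reached the filter 8 were above 0, against 51.5% of 14455 probe sets. The pooled SD between probe sets was 0.21.

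In knockdown cells with PRDM14 against scramble cells with PRDM14, 6 of the 7 members other than Lama1 were below 0 and their median was −0.23, against 0.003 over the 10122 genes. Nid1 was called lower (−1.46), where 0.475% of 10322 genes were, and no member was called higher, where 0.630% were. Lamc1 (−0.60) was also at least 1.5-fold lower, a size that 1.95% of those genes reached, but not with the mean of its probe sets, at −0.39. Lama1, at −0.62, again entered only through the array on which it was high, and was at −0.14 once low values were raised to the filter. Lamb1 (0.30) was the member above 0. Of 12 member probe sets whose mean reached the filter 10 were below 0, against 49.7% of 14455 probe sets. This comparison subtracts the scramble array with PRDM14, the array on which most members read highest and which the first comparison starts from, so the 2 comparisons share that array's values.

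The dependence of the PRDM14 difference on the knockdown was taken as the difference in knockdown cells minus that in scramble cells. It was below 0 for 6 of the 7 members other than Lama1, with a median of −0.44, while 51.0% of the 10122 genes were below 0 and their median was −0.005. It was −1.56 for Nid1, −1.17 for Sparc, −0.47 for Col4a1, −0.44 for Lamc1 and −0.33 for Col4a2. For Lama1 it was −0.70, and −0.14 once low values were raised to the filter. Hspg2 (−0.006) and Lamb1 (0.04) differed little between backgrounds on their brightest probe sets. The second Lamb1 probe set, above the filter on all 4 arrays, gave a dependence of 0.31. With the mean of its probe sets Hspg2 was at 0.001 and so was no longer below 0. The dependence uses all 4 arrays and leaves no residual, so it has no test. For Sparc it comes with the low scramble array, and for Nid1 with the low knockdown array with PRDM14.

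**Figure D3:**
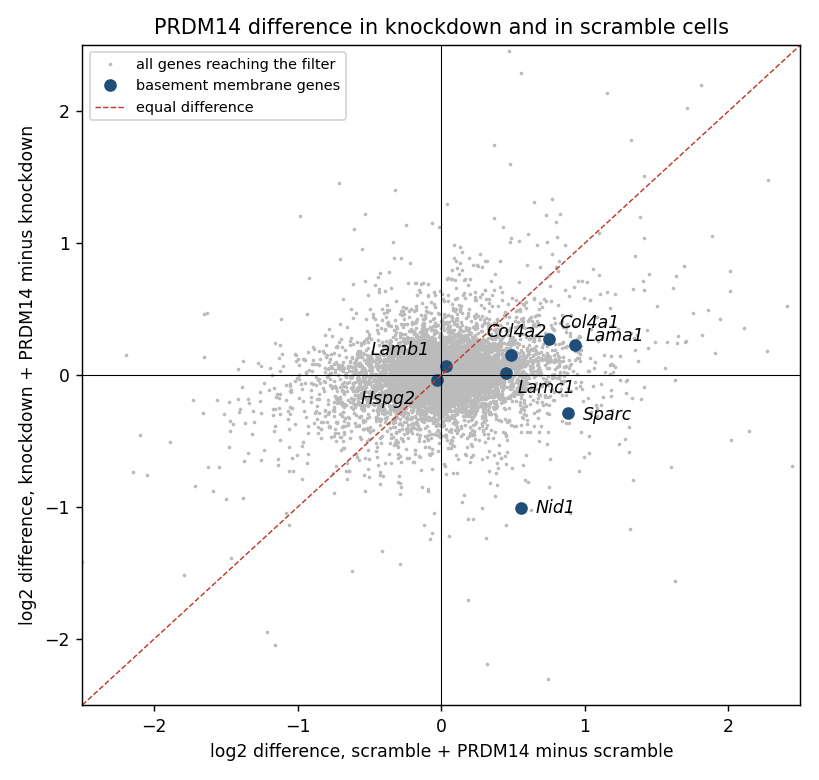
Log2 difference with PRDM14 in knockdown cells (vertical axis) against that in scramble cells (horizontal axis) for the genes that reached the filter (grey) and the 8 basement membrane genes (blue, brightest probe set). The dashed line marks equal differences, and 11 grey points lie outside the axes. Sparc (−0.29 in knockdown, 0.88 in scramble cells) and Nid1 (−1.01 in knockdown, 0.56 in scramble cells) lie furthest below the line, while Hspg2 and Lamb1 lie close to it.

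An additive model of both factors left 1 residual degree of freedom per gene and took the departure from additivity as error. With limma and Benjamini-Hochberg adjustment over 10519 genes, 0 of 8 members passed 5% for the average PRDM14 difference, with adjusted p from 0.78 to 0.96, and 0 of 8 for the average knockdown difference, with adjusted p from 0.80 to 0.999. No gene of the 10519 passed either test, that is 0.00% in each direction. At an unadjusted p under 0.05 there was 1 member for PRDM14, where 6.07% of all genes were, and 0 for the knockdown, where 5.74% were. That member was Col4a1, with an average log2 difference of 0.51 ± 0.15 (SE, 4 arrays), an unadjusted p of 0.036 and an adjusted limma p of 0.78. Col4a2 averaged 0.32 ± 0.12, and the average knockdown difference was 0.29 ± 0.12 for Lamb1 and −0.38 ± 0.16 for Lamc1, each with an adjusted limma p from 0.78 to 0.80.

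The genes with the profile most like that of Nid1, by root mean square distance between centred profiles over the 4 arrays, were Klf4 (0.14), Acp6 (0.18), Pttg1 (0.19), Ly75 (0.20) and Aldh6a1 (0.20). Klf4, a pluripotency transcription factor, read 6.36 in knockdown with PRDM14, 6.98 in knockdown, 7.58 in scramble with PRDM14 and 7.13 in scramble cells. The second Klf4 probe set had the same order of arrays. All of these genes were lowest on the knockdown array with PRDM14 and highest on the scramble array with PRDM14. They were picked from 10519 genes on 4 points, so likeness of this size describes these arrays only.

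Other chains of the same families read low. All 5 measured further laminin chains (Lama2, Lama3, Lamb2, Lamb3 and Lamc3) and all 4 further type IV collagen chains (Col4a3, Col4a4, Col4a5 and Col4a6) were below the filter on every array. Of all 17097 genes 10519 reached the filter on at least 1 array, and 0.272% to 1.09% of genes were called per direction and comparison. Of 14 other basement membrane components 7 reached the filter and none was called in any comparison. Among these, Agrn, the heparan sulfate proteoglycan agrin, read 8.12 in knockdown with PRDM14, 8.13 in knockdown, 8.44 in scramble with PRDM14 and 8.77 in scramble cells, with the scramble array highest, where Sparc was lowest. Col18a1, the collagen that yields endostatin, had PRDM14 differences of 0.49 in knockdown cells and 0.33 in scramble cells, and of 0.48 in knockdown cells and 0.29 in scramble cells on its second probe set. With PRDM14 in scramble cells 6 of those 7 components were below 0, with a median of −0.13. Of the 10366 genes in that comparison 50.4% were above 0, with a median of 0.002.

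Of 11 measured receptors 7 reached the filter, and 1 was called. Sdc4, the heparan sulfate proteoglycan syndecan-4, read 8.23 in knockdown with PRDM14, 8.07 in knockdown, 7.63 in scramble with PRDM14 and 8.73 in scramble cells, and was called lower with PRDM14 in scramble cells (−1.11), where 1.00% of all genes were. Itgb1, the beta subunit shared by the laminin and collagen integrins, read 8.47 in knockdown with PRDM14, 8.58 in knockdown, 8.40 in scramble with PRDM14 and 7.63 in scramble cells, so the scramble array was low as it was for Sparc. Itga6, the alpha subunit of laminin receptors, had PRDM14 differences of 0.55 in knockdown cells and 0.59 in scramble cells, and of 0.56 in knockdown cells and 0.84 in scramble cells on its second probe set.

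Of 15 measured genes for folding, modifying and crosslinking collagen 13 reached the filter and none was called. Per direction and comparison, 0.272% to 1.09% of all genes were called. P4hb, a subunit of the collagen prolyl hydroxylase and a disulfide isomerase, had PRDM14 differences of −0.07 in knockdown cells and 0.65 in scramble cells. P4ha2, a catalytic subunit of such a hydroxylase, had differences of 0.57 in knockdown cells and 0.24 in scramble cells. It reached the filter only in knockdown with PRDM14, where it was highest at 5.43, and both scramble arrays were below the filter. With PRDM14 in scramble cells 8 of 11 such genes were above 0, with a median of 0.23, where 50.4% of all genes were, with a median of 0.002. Of 13 measured proteases and inhibitors, Htra1 and Ctsl were called. Htra1, a secreted serine protease, read 6.58 in knockdown with PRDM14, 8.88 in knockdown, 7.45 in scramble with PRDM14 and 6.71 in scramble cells. It was called lower with PRDM14 in knockdown cells (−2.30), where 0.272% of all genes were, and higher with the knockdown without PRDM14 (2.17), where 0.618% were. Ctsl, cathepsin L, read 10.16 in knockdown with PRDM14, 10.09 in knockdown, 9.75 in scramble with PRDM14 and 10.85 in scramble cells. It was called lower with PRDM14 in scramble cells (−1.10), where 1.00% of all genes were. Timp1, a metalloproteinase inhibitor, had PRDM14 differences of 0.49 in knockdown cells and 0.53 in scramble cells. Each of Htra1 and Timp1 had 1 probe set, and the second Ctsl probe set, below the filter, had a range of 0.10 over the arrays.

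**Figure D4:**
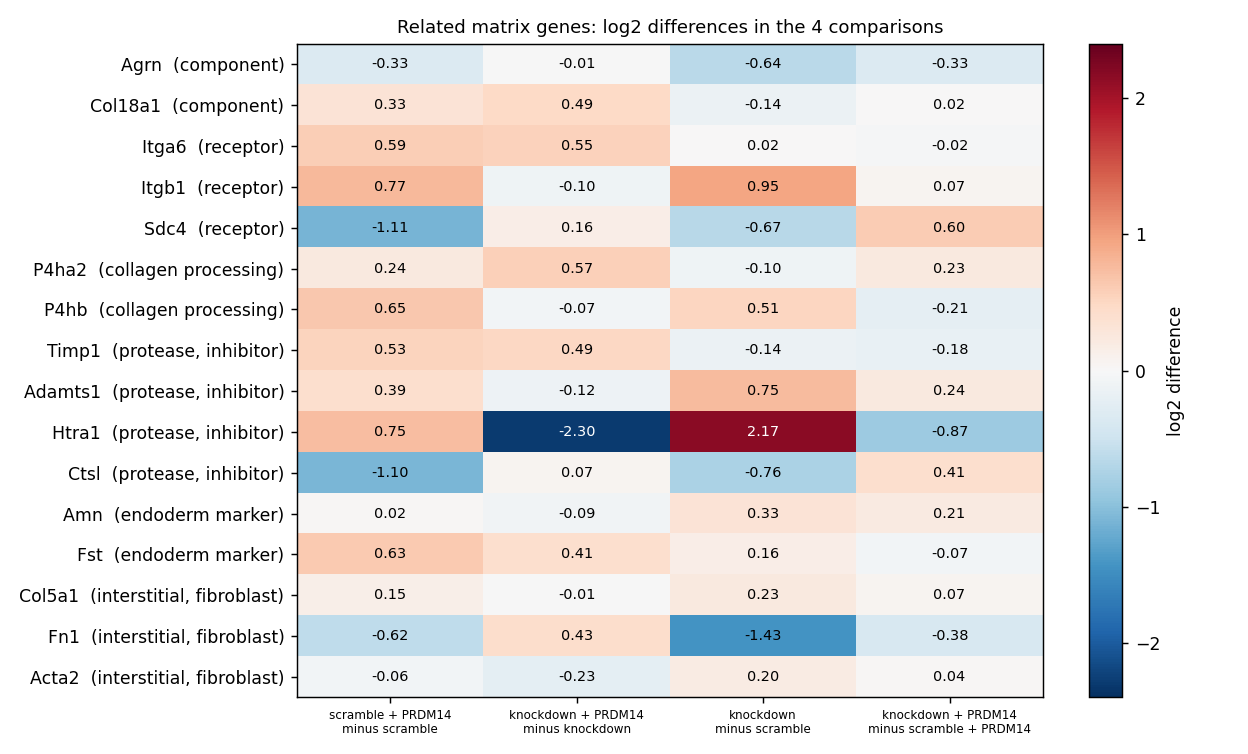
Log2 differences in the 4 comparisons (columns) for genes of the related lists (rows) that were called or had the largest differences of their list, with the value printed in each cell and the colour scale in log2 units. Htra1 has the largest values, −2.30 and 2.17, and Itgb1 is high in both comparisons that subtract the scramble array, at 0.77 and 0.95.

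Markers of cells that secrete basement membrane were mostly low. Of 18 measured primitive and parietal endoderm markers 8 reached the filter on at least 1 array and none was called. Over all genes, 0.272% to 1.09% were called per direction and comparison. The transcription factors Gata4, Sox7, Sox17 and Foxa2 and the parietal endoderm marker Thbd were below the filter on all 4 arrays. Dab2, Pdgfra and Hnf4a, of the same list, reached it on all 4 arrays, and Gata6 on 3. The linear signal summed over these 18 markers was 725 in knockdown with PRDM14, 707 in knockdown, 739 in scramble with PRDM14 and 680 in scramble cells. This sum takes in the markers below the filter and does not describe the list. Of these markers Fst, follistatin, had the largest difference, with PRDM14 differences of 0.41 in knockdown cells and 0.63 in scramble cells. Fst, Pdgfra, Hnf4a and Ttr were highest in scramble cells with PRDM14. Dab2 and Gata6 were highest in knockdown cells with PRDM14, and Amn and Stra6 in knockdown cells. The part of endoderm cells in the members' values was not tested.

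Of 14 measured fibroblast and interstitial matrix markers 5 reached the filter, and Col1a1, Col1a2, Col3a1, Thy1, Postn, Lum and Lox were among those below it on all arrays. Fn1, fibronectin, was the marker called, and read 9.54 in knockdown with PRDM14, 9.11 in knockdown, 9.92 in scramble with PRDM14 and 10.54 in scramble cells. It was called lower with the knockdown without PRDM14 (−1.43), where 0.444% of all genes were. The summed signal of that list was 1316 in knockdown with PRDM14, 1153 in knockdown, 1547 in scramble with PRDM14 and 2055 in scramble cells. The sum was highest on the array where Sparc was lowest, but its arrays stood in the order of Fn1, the brightest marker. A linear sum is carried mostly by its brightest gene, so it does not describe the list. Of the other markers at the filter, Col5a1, Col6a2 and Acta2 were highest in knockdown cells and Dcn in scramble cells with PRDM14.

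All 9 measured embryonic stem cell markers reached the filter on every array. Their differences leaned the same way as those of the members only in the comparisons that share the scramble array with PRDM14. With PRDM14 in scramble cells 6 of 9 were above 0, with a median of 0.21, where 50.6% of the 10122 genes were above 0. With the knockdown under PRDM14 7 of 9 were below 0, with a median of −0.28, where 50.9% of those genes were above 0. With PRDM14 in knockdown cells 3 of 9 were above 0 (49.4% of those genes), against 4 of the 7 members other than Lama1. With the knockdown alone 3 of 9 were (52.0% of those genes), against 5 of those 7 members. Klf4, a pluripotency transcription factor and the marker whose values are given above, was called lower with the knockdown under PRDM14 (−1.21), where 0.475% of all genes were. Nanog, another such factor, read 9.56 in knockdown with PRDM14, 9.95 in knockdown, 10.20 in scramble with PRDM14 and 9.68 in scramble cells, so its arrays with the lowest and the highest value were those of Nid1. Fgf4, a growth factor made by pluripotent cells, was 0.92 higher with PRDM14 in scramble cells, while Pou5f1 stayed between 11.10 and 11.35 on all arrays. Esrrb, of the same list, went the other way in scramble cells, with a PRDM14 difference of −0.51, and was highest on the scramble array, at 8.85. The summed signal of the list was 18433 in knockdown with PRDM14, 18991 in knockdown, 20724 in scramble with PRDM14 and 19892 in scramble cells. The part of this movement in the members' values was not tested.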

How the data were processed

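Total RNA of 4 samples was labelled with a GeneChip IVT Express kit and hybridised to Affymetrix arrays, 1 per condition, per the labels' protocols. The authors deposited log2 signals per probe set, from 2.78 to 13.2, whose quartiles agree within 0.02 between arrays. The log base was inferred from this range. Per the submitters' processing notes the tool was Affymetrix Expression Console. How it summarised probes and corrected background is not given in the sources used here.

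Of 45141 probe sets, 104 were array controls, 28898 were named for 1 gene by the platform annotation, 551 for several and 15588 for none. Entrez identifiers of 28689 named probe sets, including all 16 of the members, were found in the RefSeq table of GRCm38.p6. A gene was represented by the probe set with the highest mean, and the expression filter was the median named value, 5.40. The 2-fold rule is a size rule. Limma 3.58.1 (R 4.3.3) fitted the additive model, with an intensity trend, and adjusted by Benjamini-Hochberg at 5%. Nothing says that conditions were replicated, and precision is limited by the number of arrays.

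The members and the related gene lists were chosen with earlier results of these data known. Named genes were all members, and of each related list the genes called in any comparison and up to 2 further genes with the largest difference. The 5 genes most like the member with the widest range were also named, as were some further genes of the lists. Other settings tried were thresholds of 1.5-fold and 3-fold, a filter left out or raised by 1 log2 unit, the mean over all probe sets, low values raised to the filter, arrays centred on their medians, and limma without the trend.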

Additional observations from a re-analysis of the deposited data

Results flagged for a closer look

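The PRDM14 difference of Nid1 was −1.01 in knockdown cells and 0.56 in scramble cells, and its knockdown difference was −1.46 with PRDM14 and 0.10 without it. The difference between these differences was −1.56, and it was not tested, since each condition had 1 array. On the second Nid1 probe set, mostly below the filter, the PRDM14 difference was above 0 in both backgrounds.

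Sparc also went opposite ways, with a PRDM14 difference of −0.29 in knockdown cells and 0.88 in scramble cells and a difference between them of −1.17, which was not tested. Its second probe set had the same signs, at −0.03 in knockdown cells and 0.56 in scramble cells. The knockdown difference of Lama1 was −0.62 with PRDM14 and 0.08 without it, a difference of −0.70. That of Col4a1 was −0.22 with PRDM14 and 0.25 without it, a difference of −0.47, and that of Col4a2 was −0.23 with PRDM14 and 0.10 without it, a difference of −0.33. These 3 differences were not tested either, and Lama1 was below the filter on 3 arrays. On the second Col4a1 probe set, which read close to the filter, the knockdown difference did not change sign. It was −0.12 with PRDM14 and −0.03 without it.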

How the results depend on the processing

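The counts of called members depended on the fold threshold and, for Nid1, on the probe set. At 1.5-fold, 3 members were past the threshold with PRDM14 in scramble cells, where 8.19% of all genes were. There was 1 with the knockdown alone, where 5.09% were, and 3 with the knockdown under PRDM14, where 4.34% were. Both counts of 3 include Lama1, which entered only through the array on which it was high. At 3-fold, and with the mean over all probe sets, 0 members were called in either comparison in which Nid1 was called. With the mean of probe sets the dependence on the knockdown was −0.80 for Nid1 and −0.88 for Sparc, and with low values raised it was −0.14 for Lama1. Under the other filters, the filter on the mean over all arrays added after the data were seen among them, and under the other scalings, the counts at 2-fold were as reported, and the 4 medians moved by less than the pooled SD between probe sets. No member passed the additive fit under any of the 6 alternatives run for it in limma, with 0 to 2 members at an unadjusted p under 0.05. Of 32 single member differences, 6 moved by more than that SD with the mean over all probe sets and 3 with low values raised. No paired analysis was possible because each condition had 1 array. No array could be left out of a comparison of 2 arrays, and signals close to the filter, as for Lama1 and Col4a2, limit what can be read from them.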
